A study of Mus musculus with 2 samples.

Results

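The 10 noncoding genes described here were taken by name from the deposited gene table, which lists 34745 genes. They are Malat1 and Neat1, the snoRNA host genes Gas5, Snhg1, Snhg8 and Snhg12, and the long noncoding RNAs Pvt1, Kcnq1ot1, Meg3 and H19. All 10 are listed in the table. Of these, 6 reached 1 FPKM in one or both libraries and 4 did not, and Meg3 and H19 had fewer than 10 reads in each library.

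The study asked how CHBP, a cyclic helix B peptide derived from erythropoietin, alters monocytic myeloid-derived suppressor cells (M-MDSC), immature myeloid cells that restrain T cells. Bone marrow cells of mice were cultured for 7 days with GM-CSF alone (CHBP- M-MDSC) or with GM-CSF and CHBP (CHBP+ M-MDSC), and the cells were then sorted by flow cytometry. The labels give no dose of CHBP, and the strain entry reads C57BL/6 for the CHBP- sample but C57BL/7 for the CHBP+ sample, although the protocol text names a single C57 black 6 strain. RNA was sequenced as 1 library per condition, so there were no replicates, no test between the conditions was possible, and what CHBP did cannot be told apart from whatever else set these libraries apart.

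Long noncoding RNAs are transcripts without a long reading frame, and many of them act in the nucleus. Malat1 collects in nuclear speckles, where splicing factors are stored, and Neat1 is the scaffold around which paraspeckles form. The snoRNA host genes carry small nucleolar RNAs in their introns. The snoRNAs guide chemical modification of ribosomal RNA, while the spliced exons of many hosts are short-lived because nonsense-mediated decay removes them during translation. Host transcripts of this kind often begin with a run of pyrimidines, as the mRNAs of ribosomal proteins do. Kcnq1ot1, Meg3 and H19 are made from 1 parental copy of imprinted clusters, and Pvt1 lies beside Myc.

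Start sequences are given here for the 4 snoRNA hosts and for Malat1 as a nuclear RNA without snoRNAs. Not every start of the hosts shows such a run of pyrimidines. Each sequence runs from 15 bases before to 45 bases from the start of the transcript in RefSeq (GRCm38.p6), read 5′ to 3′ on the transcribed strand, and the capitals mark the unbroken run of C or T that holds the first base of the transcript. Gas5 has a start with no such run and a second start with one.
Gas5, first start (chr1:161034586-161034645, plus strand): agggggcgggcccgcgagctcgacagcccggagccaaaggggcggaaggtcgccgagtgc
Gas5, second start (chr1:161035151-161035210, plus strand): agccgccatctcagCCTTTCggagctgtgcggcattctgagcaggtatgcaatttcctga
Snhg1 (chr19:8723472-8723531, plus strand): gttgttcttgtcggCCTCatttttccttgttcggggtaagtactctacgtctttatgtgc
Snhg8 (chr3:123508292-123508351, minus strand): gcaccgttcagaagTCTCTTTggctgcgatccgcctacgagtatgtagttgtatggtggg
Snhg12 (chr4:132308663-132308722, plus strand): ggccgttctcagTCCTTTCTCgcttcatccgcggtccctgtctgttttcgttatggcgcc
Malat1 (chr19:5802628-5802687, minus strand): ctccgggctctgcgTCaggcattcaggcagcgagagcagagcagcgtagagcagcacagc

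The run was 9 bases long in Snhg12, 7 in Snhg8, 6 at the second start of Gas5, 4 in Snhg1 and 2 in Malat1. It was 0 in Kcnq1ot1 and at both starts of Meg3, while Neat1, Pvt1 and H19 had no entry in the promoter table. A run of at least 6 bases was present in 3 of the 7 noncoding genes with an entry, in 5 of 16 noncoding snoRNA hosts and in 2 of 12 protein-coding snoRNA hosts. Gas5, Snhg8 and Snhg12 are counted both among the 7 genes and among the 16 hosts. The median run of the 16 hosts was 0. Among all 27025 genes with an entry the share was 8.48%. The run was searched on the transcribed strand only, and a match describes these letters and no binding.

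RefSeq places 21 snoRNAs within the loci of the 4 hosts, between 56 and 136 bases long. Gas5 holds 8, Snhg1 holds 8, Snhg12 holds 4 (Snora16a, Snora44, Snora61 and Snord99) and Snhg8 holds 1, Snora24. Together they cover 16.5% of the host loci. In the deposited table only 1 of the 34745 genes has a name starting with Snord or Snora, so the reads of a host are those of its gene model and the levels of its snoRNAs are not analysed here.

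**Figure D1:**
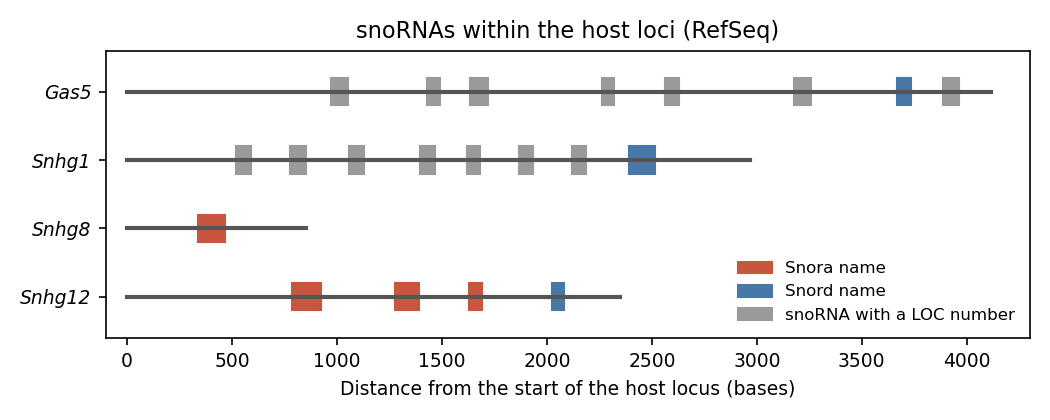
Position of the snoRNAs (boxes) within the loci of Gas5, Snhg1, Snhg8 and Snhg12 (lines), with the distance from the lower coordinate of each locus in bases on the horizontal axis. Gas5 and Snhg1 carry 8 snoRNAs each, Snhg12 carries 4 and Snhg8 carries 1. Snora names are usually given to snoRNAs of the H/ACA class, Snord names to those of the C/D class, and grey boxes have only a LOC number in RefSeq.

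The libraries held 16484504 (CHBP-) and 16280466 (CHBP+) reads on genes. A gene without a read could still be present at up to 0.182 or 0.184 CPM, the level of 3 reads, where CPM is the count scaled to the library's total of reads on genes. FPKM is the same count divided by gene length in kilobases. The change of a gene is given as the log2 ratio of FPKM + 1, CHBP+ over CHBP-, which understates the change of low genes, and a gene was called higher or lower when this ratio reached 1.5-fold with at least 1 FPKM in one library. Intervals are exact 95% Clopper-Pearson intervals for the share of reads. They cover counting error only, since reads are not independent molecules, and they say nothing of the spread between cultures. As these were bulk samples, fewer cells of a type and less RNA per cell cannot be told apart. The markers of the labelled cells were present, with 8 of the 9 monocytic entries at 1 FPKM or more (Itgam is listed under 2 identifiers, and Nos2 was below). They were not equal in the libraries, since Ly6c2, which encodes the antigen used to sort these cells, was called lower (4091 and 2411 reads, log2 ratio -0.73). Of the Itgam entries, 1 was called higher (log2 ratio 0.61) and the other fell just short of 1.5-fold (log2 ratio 0.56). All 5 T-cell markers were below 1 FPKM, at a summed 2.94 and 2.26 FPKM. The 3 B-cell markers summed to 25.8 and 16.98 FPKM, and the 5 erythroid markers to 1283 and 586 FPKM. The sums were 100.1 and 66.3 FPKM for 5 granulocytic markers, 127 and 158 FPKM for 4 dendritic markers, and 190.0 and 166 FPKM for 3 mast cell and basophil markers.

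Among the 6 noncoding genes at 1 FPKM or more, Malat1 was higher in CHBP+ M-MDSC and Snhg8 was lower. Across all 10948 genes at this level, 3.42% were called higher and 2.89% lower. By counting error alone, the interval of the CPM ratio lay above 1 for Malat1 and Kcnq1ot1, below 1 for Gas5, Snhg1, Snhg8 and Snhg12, and held 1 for Neat1, Pvt1, Meg3 and H19. Of all 14162 genes with at least 10 reads, this interval lay above 1 for 24.1% and below 1 for 25.1%. All 4 snoRNA hosts were therefore on the lower side, and the nuclear RNAs Malat1 and Neat1 were not.

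**Figure D2:**
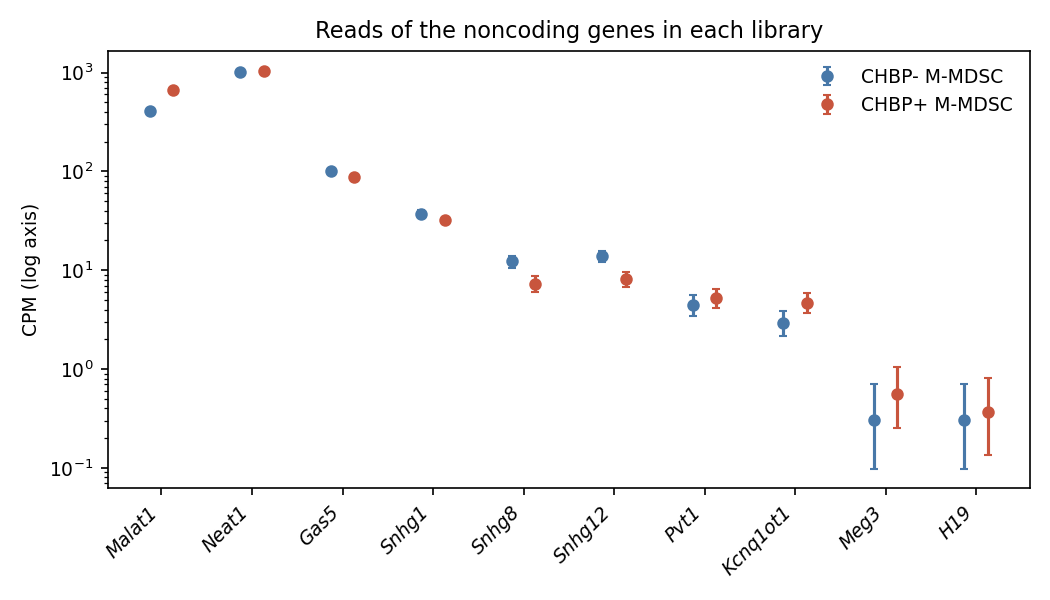
CPM of the 10 noncoding genes (log axis) in CHBP- M-MDSC (blue) and CHBP+ M-MDSC (red), 1 library each, with bars for 95% Poisson counting intervals. Malat1 stands at 407 and 668 CPM, Neat1 at 1022 and 1030 CPM, and Meg3 and H19 lie below 1 CPM in both libraries.

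Malat1 (ENSMUSG00000092341, chr19:5795690-5802672 on GRCm38, minus strand) was covered by 6710 reads without CHBP and by 10868 reads with it. This was 43.6 FPKM in CHBP- and 71.5 FPKM in CHBP+, the highest level of the 10 genes in both libraries. Its log2 ratio was 0.70 (counting interval 0.66 to 0.74), and its CPM ratio was 1.64 (1.59 to 1.69). By number of reads it stood 329th among all genes in CHBP- M-MDSC and 160th in CHBP+ M-MDSC. The locus overlaps Gm37376, with 3 and 2 reads, and Gm20417, with no reads, and with Gm37376 added the CPM ratio was again 1.64.

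Neat1 (ENSMUSG00000092274, chr19:5824708-5845478, minus strand) lies beside Malat1 on the same strand and overlaps no other listed gene. Its reads numbered 16851 without CHBP and 16770 with CHBP, more than any other of the 10 genes, and stood 86th and 76th among all genes. The level was 41.2 FPKM and 41.5 FPKM. The log2 ratio was 0.01 (-0.02 to 0.04) and the CPM ratio 1.01 (0.986 to 1.03), so that a difference of Neat1 larger than this interval was not seen between these libraries. The ratios of these neighbouring genes thus differed. For each Neat1 read there were 0.398 Malat1 reads without CHBP and 0.648 with CHBP, a 1.63-fold difference (1.57 to 1.69) that does not depend on the library totals.

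The log2 ratios of all genes followed gene length, which bears on both of these genes. Over 10649 genes with a transcript in GENCODE M1, the log2 ratio and the longest transcript had a Spearman's rho of 0.649, a description across genes that share the same 2 libraries. The median log2 ratio ran from -0.35 in the group of shortest transcripts to 0.36 in the group of longest. Malat1, with a longest transcript of 6982 bases, and Neat1, with 20771 bases, both fall into the group of longest transcripts. With this trend removed, the log2 ratio of Malat1 was 0.40, which is no longer past 1.5-fold, and that of Neat1 was -0.88, which is past 1.5-fold in the lower direction. Only 5 of the genes kept have a transcript of at least 20000 bases, so the trend at the length of Neat1 rests on few genes. With the trend on the length behind the deposited FPKM removed instead (rho 0.478), the log2 ratio of Malat1 was 0.59 and still past 1.5-fold, and that of Neat1 was -0.34. The part of transcript length in these values was not tested beyond this. Under either removal the split of called genes also moved, from 374 higher and 316 lower to 248 and 119 with the longest transcript and 312 and 168 with the deposited length.

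**Figure D3:**
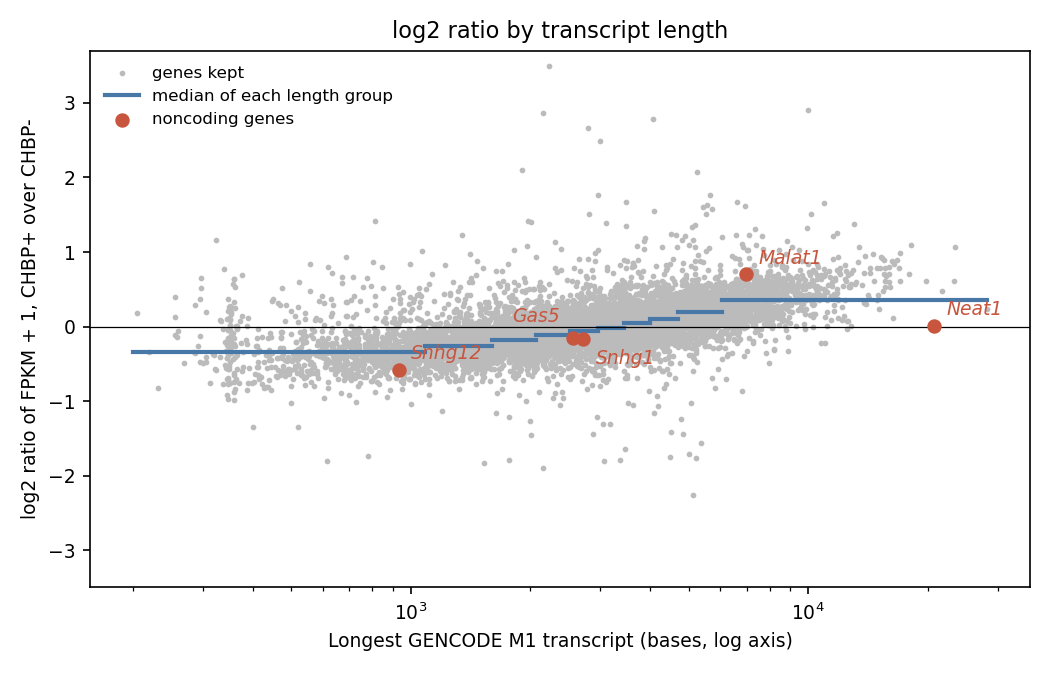
log2 ratio of FPKM + 1, CHBP+ over CHBP-, against the longest GENCODE M1 transcript in bases (log axis) for the genes at 1 FPKM or more (grey), without the 22 whose transcript is under 200 bases. Blue lines give the median of each of 10 groups by length and red points mark the 5 noncoding genes at this level with an M1 transcript. Malat1 lies above the median of its group (0.36), Neat1 and Snhg12 lie below theirs, and Gas5 and Snhg1 lie close to theirs (-0.07).

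The lengths behind the deposited FPKM were themselves unusual for the noncoding genes. Calculated back from counts and FPKM, they exceeded the whole genomic span of the locus for 7 of the 10 genes, against 8.06% of all genes kept. For Malat1 the length was 9336 bases in a span of 6982. For Gas5 it was 11685 bases in a span of 4117, and for Snhg1 it was 11131 bases in a span of 2968. These lengths came near the sum over all M1 transcripts of the gene for Malat1 (9335 bases) but not for Gas5 (18528) or Snhg1 (5058), so how they were made is unknown here. The deposited FPKM of these genes is thus low for their span, which affects both libraries alike and leaves the CPM ratios as they are. Per kilobase of the longest M1 transcript, Malat1 had 58.3 and 95.6 CPM, Neat1 had 49.2 and 49.6 CPM, and Gas5 had 39.3 and 34.7 CPM in CHBP- and CHBP+ M-MDSC. On this scale Gas5 stood much nearer to Neat1 than its 8.60 and 7.60 FPKM show. Pvt1 has a deposited length of 11475 bases and a longest M1 transcript of 3316 bases. It was below 1 FPKM in both libraries but had 1.34 and 1.57 CPM per kilobase of that transcript.

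Gas5 (ENSMUSG00000053332, chr1:161034422-161038539, plus strand), known as a growth-arrest transcript and host of C/D snoRNAs, had 1657 reads without and 1445 reads with CHBP. The log2 ratio was -0.16 (-0.25 to -0.07) and the CPM ratio 0.883 (0.822 to 0.948). Its locus shares 428 bases with Zbtb37, a zinc-finger gene that moved the other way, with 227 and 410 reads and a CPM ratio of 1.83 (1.55 to 2.16). How strand and overlapping genes were treated in counting is not given in the sources used here, so reads of the shared stretch cannot be assigned. Summed over both genes the reads were 1884 and 1855, with a CPM ratio of 0.997 (0.935 to 1.06), which holds 1. This sum takes in all reads of Zbtb37, wherever they lie in its locus, so it does not isolate the shared stretch.

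Snhg1 (ENSMUSG00000108414, chr19:8723475-8726443, plus strand) showed 613 reads at 3.34 FPKM in the CHBP- library and 520 reads at 2.87 FPKM in the CHBP+ library. Its log2 ratio was -0.17 (-0.29 to -0.04) and its CPM ratio 0.859 (0.763 to 0.967). The values of Gas5 and Snhg1 were well short of 1.5-fold, and both genes fall into the group by longest transcript whose median was -0.07.

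Snhg8 (ENSMUSG00000104960, chr3:123507552-123508404, minus strand), the shortest of the 4 hosts, had 202 reads without CHBP and 118 with it. Its level was 6.99 FPKM in CHBP- and 4.14 FPKM in CHBP+. The log2 ratio was -0.64 (-0.92 to -0.36) and the CPM ratio 0.591 (0.467 to 0.746). Snhg8 was called lower, but with the trend on deposited length removed its log2 ratio was -0.46, short of the 1.5-fold line. It has no transcript in M1, so the other removal could not be made.

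Snhg12 (ENSMUSG00000086290, chr4:132308678-132311024, plus strand) went from 228 reads (4.21 FPKM) without CHBP to 133 reads (2.48 FPKM) with CHBP. The CPM ratio was 0.591 (0.473 to 0.735), the same as that of Snhg8. The log2 ratio of -0.58 (-0.82 to -0.34) fell just short of the 1.5-fold line of FPKM + 1, and Snhg12 passed this line when CPM or a pseudocount of 0.1 was used. With the trend on the longest transcript removed it was -0.29. Snhg8 and Snhg12 are therefore close in value and lie on either side of the threshold.

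The 4 hosts together had 2700 and 2216 reads, a CPM ratio of 0.831 (0.785 to 0.879), of which Gas5 gave most. Snhg1, Snhg8 and Snhg12 overlap no other listed gene. The log2 ratios of all 4 stayed below 0 under each alternative scaling, pseudocount and trend removal computed for them, at -0.32 to -0.09 for Gas5, -0.32 to -0.11 for Snhg1, -0.74 to -0.46 for Snhg8 and -0.74 to -0.29 for Snhg12. The CPM ratio of 0.997 described above, for Gas5 summed with Zbtb37, holds all reads of both genes and is not a value of Gas5 alone. Markers of other cell types also differed between the libraries. All 5 erythroid markers were below 0 (3 past 1.5-fold), as were all 3 B-cell markers (1 past 1.5-fold). Of 5 granulocytic markers, 4 were below 0 (1 past 1.5-fold), and the counting interval lay below 1 for 2 and held 1 for 3. With the trend on either length removed, 3 of these 5 were above 0, while all erythroid and B-cell markers stayed below 0. The summed dendritic FPKM was higher, most of it from Itgax (107 and 142 FPKM). Of the 3 dendritic markers at 1 FPKM or more, 1 was above and 2 were below 0. The mast cell and basophil markers split, with 1 called higher and 1 lower. Their part in the host values was not tested.

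The wider list of noncoding snoRNA hosts was also on the lower side. It includes Gas5, Snhg1, Snhg8 and Snhg12 themselves, so its counts and medians are partly theirs. The other hosts of the list at 1 FPKM or more were below 0 as well. Of 21 symbols on this list 19 were found in the table, 3 of them under an older name, and 14 reached 1 FPKM. All 14 had a log2 ratio below 0 (13 of 14 when the median of all genes was set to 0), with a median of -0.22, whereas 53.7% of all genes kept were below 0 with a median of -0.03. The call was lower for 3 (Snhg8, Snhg3 and Epb41l4aos) of the 14 and higher for 0, against 2.89% and 3.42% of all genes kept. Snhg3 had 220 and 133 reads and a log2 ratio of -0.60, or -0.43 and -0.27 with the trend on deposited length and on the longest transcript removed. Its locus overlaps another gene with at least 10 reads. Epb41l4aos, an antisense transcript that hosts a snoRNA, had 70 and 20 reads and a log2 ratio of -1.34, the lowest of the list and the only lower call of the list left under either removal, at -1.10 and -1.01. By counting error, the CPM ratio lay below 1 for 10 of the 16 hosts with at least 10 reads and above 1 for 0, against 25.1% and 24.1% of all genes with this many reads. Besides Gas5, Snhg1, Snhg8 and Snhg12, those below 1 were Snhg3, Snhg5, Snhg16, Snhg20, Dancr and Epb41l4aos. The interval held 1 for Snhg4, Snhg6, Snhg11, Snhg15, Snhg17 and Zfas1. After removal of the trend on the longest transcript the median of the list was -0.07, with 8 of 12 hosts below 0, next to a median of -0.01 over all genes. After removal of the trend on deposited length it was -0.30, with 13 of 14 below 0. The list's difference from all genes thus depended on which length was used.

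**Figure D4:**
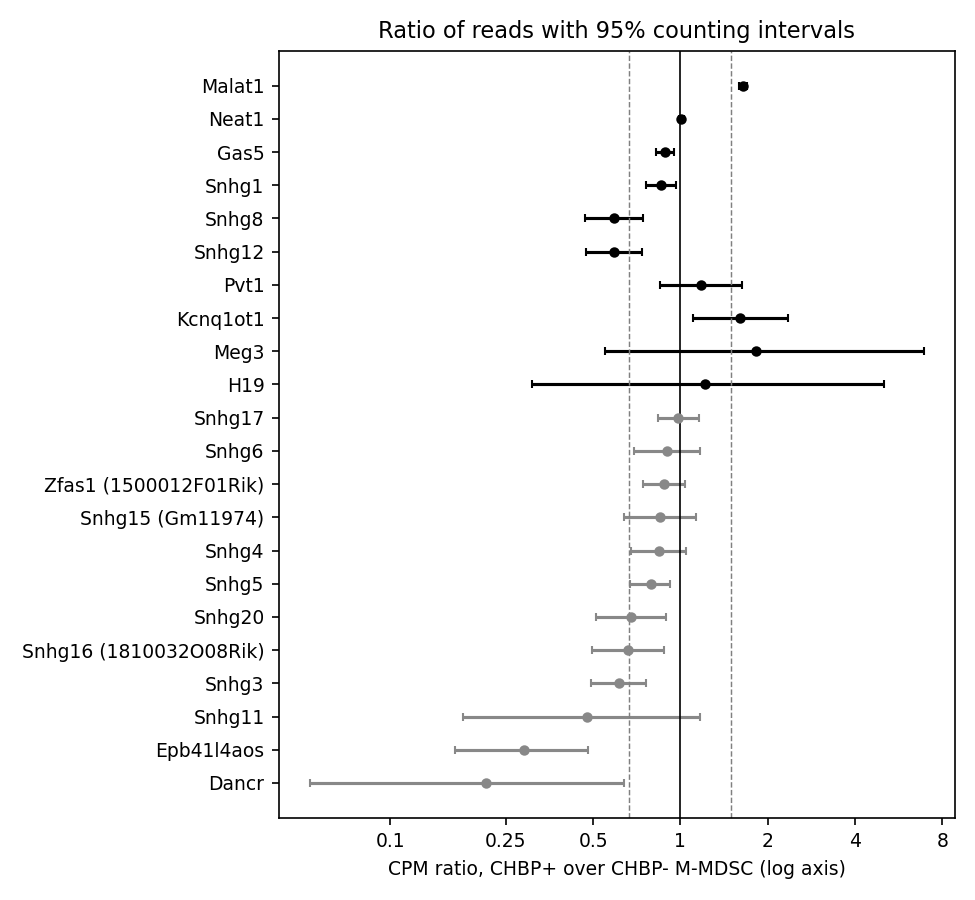
CPM ratio, CHBP+ over CHBP- M-MDSC (log axis), with 95% counting intervals for the 10 noncoding genes (black) and for the other noncoding snoRNA hosts with at least 10 reads (grey). The solid line marks 1 and the dashed lines 1.5-fold. Malat1 and Kcnq1ot1 lie above 1, the 4 host genes below 1, and Meg3 and H19 have wide intervals that hold 1.

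Protein-coding genes whose introns carry snoRNAs gave similar values. All 18 found were above 1 FPKM, 16 were below 0, and the median log2 ratio was -0.27. Of all genes kept, 53.7% were below 0. The call was lower for 2 of the 18 and higher for 0, against 2.89% and 3.42% of all genes kept. Of these, Rps12, a ribosomal protein gene with 1169 and 750 reads, was called lower at -0.62, a call that was lost at -0.37 and -0.29 with the trend on deposited length and on the longest transcript removed. Gnb2l1, now named Rack1, a ribosome-bound scaffold protein, had 21165 and 13356 reads and was called lower at -0.64, and at -0.72 and -0.76 with these trends removed. Its locus overlaps another gene with at least 10 reads. Among the most abundant were Rpl13a at 919 and 692 FPKM and the elongation factor Eef2, which at 878 and 887 FPKM had a log2 ratio of 0.01. The proteins that pack snoRNAs into particles were also below 0 in 9 of 9 cases (8 of 9 when the median of all genes was set to 0), with a median of -0.26 and none past 1.5-fold. Nop56 is counted both here and among the protein-coding hosts. Fbl, the methyltransferase of C/D particles, had 75.1 and 57.9 FPKM, Nhp2 had 57.8 and 41.3 FPKM, and Nop10 had 40.8 and 29.9 FPKM. With the trend on the longest transcript removed, the medians were -0.17 for the protein-coding hosts and -0.18 for the particle proteins.

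The factors of nonsense-mediated decay, the pathway that degrades host exons, did not share this side as a list, although some of them did. Of 14, 9 were above 0 and 5 below, with a median of 0.09. By counting error, the CPM ratio lay above 1 for 6 and below 1 for 4, against 24.1% and 25.1% of all genes with at least 10 reads. The call was higher for 1 and lower for 0, against 3.42% and 2.89% of all genes kept. Only Smg1, the kinase that phosphorylates Upf1, was past 1.5-fold, at 2201 and 4389 reads and a log2 ratio of 0.90, and this call was lost when the trend on deposited length (0.55) or on the longest transcript (0.18) was removed. The 3 most abundant factors were Magoh at 38.2 and 31.6 FPKM, Eif4a3 at 36.3 and 28.0 FPKM, and the helicase Upf1 at 19.4 and 20.6 FPKM. Their log2 ratios were -0.26, -0.37 and 0.08.

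Of 13 paraspeckle proteins, the partners of Neat1, 7 were above 0 and 6 below, with a median of 0.06 and none past 1.5-fold. By counting error, the CPM ratio lay above 1 for 4 of them and below 1 for 2, against 24.1% and 25.1% of all genes with at least 10 reads. Tardbp, chosen after its values were seen, came nearest to 1.5-fold, with 1318 and 1897 reads and a CPM ratio of 1.46 (1.36 to 1.56). Nono had 4469 and 4307 reads, Sfpq 3580 and 3736 reads, and Hnrnpa1, the most abundant of the list at 113 and 99.9 FPKM, 3563 and 3119 reads. For Nono and Sfpq, which Neat1 holds in paraspeckles, the log2 ratios were -0.03 and 0.08.

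Of 12 nuclear speckle proteins, the neighbours of Malat1, 7 were above 0 and 5 below, with a median of 0.04. Son and Srrm2, the large scaffold proteins at the core of speckles, were both called higher. These were 2 of the 12, against 3.42% of all genes kept. Son had 6000 and 9412 reads and a log2 ratio of 0.64, and Srrm2 had 2097 and 3901 reads and a log2 ratio of 0.83. Neither was past 1.5-fold once the trend on either length was removed. The loci of both overlap another gene with at least 10 reads. With overlapping genes left out, 9 of the list remained and 0 were called higher. Rnps1, Srsf7 and Pnn, the most abundant of the list, had log2 ratios of -0.29, -0.25 and 0.08.

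**Figure D5:**
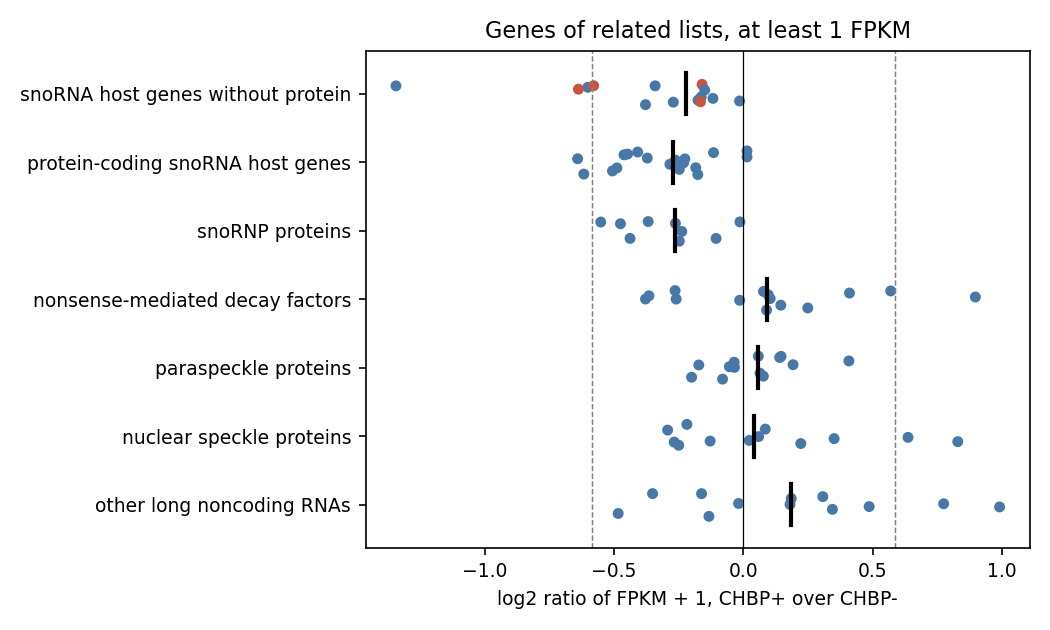
log2 ratio of FPKM + 1, CHBP+ over CHBP-, for each gene at 1 FPKM or more in 7 gene lists. Red points are the noncoding snoRNA hosts described singly, black bars are list medians and dashed lines mark 1.5-fold. All 14 noncoding hosts and all 9 snoRNP proteins lie below 0 (13 and 8 when the median of all genes is set to 0), whereas paraspeckle and nuclear speckle proteins lie on both sides.

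The other 4 noncoding genes were below 1 FPKM in both libraries. Pvt1 (ENSMUSG00000097039, chr15:62037986-62378096, plus strand), a long transcript beside Myc, had 73 reads without and 85 with CHBP, at 0.386 and 0.455 FPKM. Its CPM ratio was 1.18 (0.852 to 1.63), so a difference was not detectable at this depth. H2afy3, which lies within the Pvt1 locus, had no reads. Myc, the transcription factor gene next to it, had 1644 and 1219 reads and a log2 ratio of -0.37, and Gsdmc on the other side had no reads.

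Kcnq1ot1 (ENSMUSG00000101609, chr7:143212155-143296549, minus strand), the antisense RNA that silences its imprinted cluster in cis, had 48 reads without and 76 with CHBP. Its level was 0.0345 and 0.0553 FPKM over a locus of 84394 bases, and its CPM ratio was 1.60 (1.10 to 2.35). The locus lies wholly inside Kcnq1, on the opposite strand, which had 27 and 23 reads. Without known strand in the counting, reads of Kcnq1 introns and of Kcnq1ot1 cannot be told apart. Summed over both genes the reads were 75 and 99, and the CPM ratio of 1.34 (0.980 to 1.83) held 1. Cdkn1c, a cell cycle inhibitor silenced by this cluster on the paternal copy, had 16 and 10 reads.

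Meg3 and H19 were too low to compare. Meg3 (ENSMUSG00000021268, chr12:109541001-109571726, plus strand), the maternally expressed RNA of the Dlk1 cluster, had 5 reads without and 9 with CHBP, with a CPM ratio of 1.82 (0.549 to 6.92). Dlk1 had 0 and 1 reads, and Gm26906 inside the Meg3 locus had none. H19 (ENSMUSG00000000031, chr7:142575529-142578143, minus strand) had 5 and 6 reads, with a CPM ratio of 1.22 (0.309 to 5.03), and Igf2, its paternally expressed neighbour, had 1 and 0 reads. Of the 6 stromal markers, which mark cells known for Meg3 and H19, only Pdgfrb reached 1 FPKM, and the list summed to 2.60 and 2.81 FPKM.

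Of the 17 genes of these imprinted clusters and the Igf2r cluster, 3 reached 1 FPKM and 4 had no read in either library (Mirg, Rtl1, Ins2 and Phlda2). Igf2r, the receptor for mannose-6-phosphate and Igf2, was called higher with 1138 and 1911 reads and a log2 ratio of 0.69, but it was short of 1.5-fold at 0.57 and 0.27 with the trend on deposited length and on the longest transcript removed. The locus of Igf2r overlaps another gene with at least 10 reads. The 2 others at 1 FPKM or more, Cd81 at -0.16 and Tspan32 at -0.14, lie in the Kcnq1ot1 cluster and were not past 1.5-fold.

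Ordered by FPKM, the genes in CHBP- M-MDSC ran from Malat1, Neat1, Gas5, Snhg8, Snhg12, Snhg1 and Pvt1 to H19, Kcnq1ot1 and Meg3. The order in CHBP+ M-MDSC was the same except that Snhg1 stood above Snhg12. Counting intervals of neighbours overlapped for H19 and Kcnq1ot1 in both libraries, for Kcnq1ot1 and Meg3 in CHBP- M-MDSC, and for Snhg1 and Snhg12 in CHBP+ M-MDSC, so that those pairs cannot be ranked. FPKM rests on the lengths described above. Per kilobase of the longest M1 transcript, Snhg12 and Snhg1 had 14.8 and 13.7 CPM in CHBP- M-MDSC and 8.76 and 11.7 CPM in CHBP+ M-MDSC. On this scale their counting intervals overlapped in CHBP- M-MDSC, so that the pair cannot be ranked there.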

How the data were processed

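RNA of CHBP- and CHBP+ M-MDSC was sequenced as 1 library per condition, and samples were grouped by their labels. The deposited counts are raw reads per gene, and the deposited FPKM are these counts divided by a gene length and the library's total. The methods of the study name TopHat2, mm9, HT-seq and DESeq, while the submitters' processing notes name HISAT2 2.0.4, Cufflinks 2.1.1, Cuffdiff and mm10. All 10 deposited loci overlap their RefSeq GRCm38 genes, so coordinates are given on that build. They are printed as deposited. Ribosomal reads were removed by the authors. Strand and multi-mapping settings are not given in the sources used here.

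Log2 ratios, Clopper-Pearson and Poisson intervals were computed with scipy 1.17.1, pandas 2.3.3 and numpy 2.4.6 under Python 3.11.15, and figures with matplotlib 3.10.9. No count model was fitted for lack of replicates. edgeR 4.0.16 in R 4.3.3 served only for the trimmed mean of M values. The fold of 1.5 follows the study, which also set a limit on the P value. No P value was used here, and the ratio of FPKM + 1 and the floor of 1 FPKM were chosen here. Alternatives tried were no filter or at least 5 FPKM, a 0.1 pseudocount, 2-fold, CPM, median centring, trimmed means, removal of the trend with deposited length (a polynomial of degree 3) and leaving out overlapping genes. The trend with the longest GENCODE M1 transcript, matched by identifier or symbol, and reads summed over overlapping genes were added after seeing the data. The calculation was tested on simulated data. The members and gene lists were chosen with earlier results of these data known. Besides the members, genes named were overlapping genes with at least 10 reads in a library, the neighbour across a shared locus, and of each list those past 1.5-fold and the 3 with the highest mean FPKM. Others, such as overlapping genes with fewer reads, were named after their values were seen. One gene that this rule names is not reported here.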

Additional observations from a re-analysis of the deposited data

How the results depend on the processing

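The count of noncoding genes called higher was 1 (Malat1) and became 0 with the trend on the longest M1 transcript removed and 0 at 2-fold. The count called lower was 1 (Snhg8) and became 2 with a pseudocount of 0.1 and 2 with CPM, where Snhg12 was added, and 0 with the trend on deposited length removed and 0 at 2-fold. With the trend on the longest transcript removed it was again 1, but the gene was Neat1, at a length that few genes reach. Snhg8 has no M1 transcript and could not be called under this setting, which covered 5 of the noncoding genes. Over all genes, 374 were higher. A pseudocount of 0.1 gave 665 higher and 571 lower, CPM gave 609 higher, and there were 248 with the trend on the longest transcript removed, 218 at 5 FPKM or more and 85 at 2-fold. There were 316 lower genes, but 168 and 119 with the trend on deposited length and on the longest transcript removed, 209 at 5 FPKM or more and 46 at 2-fold. The share of higher among called genes was 54.2%, and 65.0% and 67.6% under the 2 trend removals and 64.9% at 2-fold. The log2 ratio of Malat1 kept its direction in 6 of 6 alternatives (0.40 to 0.73) and that of Neat1 in 4 of 6 (-0.88 to 0.04). Scaling by trimmed means shifted the median of all genes by 0.01 and left all 10 noncoding genes within their counting intervals.

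With 1 library per condition, no replicate was left out. No paired analysis was possible because each condition has 1 sample. Depth limits Pvt1, Kcnq1ot1, Meg3 and H19, where only a difference beyond the counting interval is visible. The GENCODE M1 lengths come from an annotation of an older build, and 8 of the 10 noncoding genes have one.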

Other observations

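Of 3054 listed genes whose symbol RefSeq types as lncRNA, 207 reached 1 FPKM, and of those 10 were called higher (4.83%) and 17 lower (8.21%), with 86 above and 121 below 0 and a median log2 ratio of -0.07. Of all 34745 genes 10948 reached 1 FPKM, of which 3.42% were called higher, 2.89% lower and 53.7% lay below 0. Leaving out those that overlap another gene with at least 10 reads, 118 remained, with 4 higher and 12 lower. By the same rule 8519 of all genes at 1 FPKM or more remained, with 271 higher and 240 lower. By the sum of reads over both libraries, Neat1, Xist and Malat1 led the class, followed by F630028O10Rik (7933 and 7469 reads) and AI662270 (3192 and 2692 reads), and in CHBP- M-MDSC alone F630028O10Rik stood above Xist and Malat1. Genes listed only under an older symbol are not in this class. Gas5 was among the first 10.

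Xist, the RNA that coats the inactive X chromosome, had 7717 reads without CHBP and 15453 with it and a log2 ratio of 0.99, or 0.71 with the trend on deposited length and 0.22 with the trend on the longest transcript removed. Among 22 listed long noncoding RNAs outside the 10 described, 12 reached 1 FPKM, 7 of them above and 5 below 0, and the median was 0.18. Besides Xist, the gene called higher was 2900097C17Rik, now named Norad, with 262 and 460 reads and a log2 ratio of 0.77. Mir22hg, a microRNA host, had 796 and 699 reads and a log2 ratio of -0.16, and 1700020I14Rik, now named Oip5os1, had 2958 and 4157 reads and a log2 ratio of 0.49. Of the class, genes that were chosen after their values were seen are 4933404O12Rik, which had 225 and 60 reads and a log2 ratio of -0.86, and 2610037D02Rik, which had 27 and 120 reads and a log2 ratio of 0.86. Both overlap no other gene with at least 10 reads, and their log2 ratios were -0.93 and 0.82 with the trend on the longest transcript removed.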
